A study of Mus musculus with 14 samples.

Results

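The genes described here are 10 known targets of the transcription factor p53 in mouse neural stem cells: Cdkn1a, Mdm2, Ccng1, Phlda3, Trp53inp1, Zmat3, Sesn2, Pidd1, Psrc1 and Bax. They were named as a list, which was selected because its measured genes were higher with EGF in these arrays. The EGF differences of the members are therefore a description and carry no test. Of the 10, 9 had a value on the array, and all 9 were among the 17364 genes tested of 23152 measured. No probeset named Bax alone, and its level was not analysed here. Pidd1 is listed on the array under its older symbol Lrdd.

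Cultures of neonatal neural stem cells were set up from the subventricular zone of 7 animals at postnatal day 4, and each culture, called a clone, then received adenoviral Cre recombinase, an enzyme that cuts out DNA between loxP sites. Clones 1 to 4 are the wild type controls (Cic+/+) and clones 5 to 7 lost Cic (Cic-/-), which encodes the DNA-binding repressor capicua. Both genotypes received the virus, and a clone here is a culture of 1 animal. RNA from every clone was hybridised to an Affymetrix array after 24 h in proliferation medium with EGF and after 24 h without it, so each medium has 4 Cic+/+ arrays and 3 Cic-/- arrays.

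The transcription factor p53 is stabilised by DNA damage, replication stress and other insults, and it then switches on genes that stop the cell cycle, brake growth signalling, promote cell death and limit p53 itself. Mdm2 closes that loop, because it is a target of p53 and marks p53 for destruction. In neural stem cells p53 is known to restrain self-renewal and proliferation. EGF keeps such cells dividing in culture and signals through its receptor to ERK, which relieves repression by capicua.

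The proximal promoters of the members are shown because p53 acts through a short DNA element, and they place that element before any expression value. RefSeq promoter windows of GRCm38.p6, running from 250 bases before to 50 after a gene's start, were found for 8 of the 10 members, and Trp53inp1 and Zmat3 had none. Both strands were searched for the p53 response-element decamer, a motif of 10 bases named here without letters because it is degenerate. An exact decamer stood in a window of each of 4 members, Cdkn1a, Mdm2, Ccng1 and Bax. By window, it stood in 4 of the members' 10, against 8.4% of all 32851 windows. In the stretches below, capitals mark exact decamers and, in Bax, also the mismatched decamer paired with one.
Cdkn1a, chr17:29090886-29090957, plus strand: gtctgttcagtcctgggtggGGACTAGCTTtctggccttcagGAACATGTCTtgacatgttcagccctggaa
Mdm2, chr10:117710915-117710964, minus strand: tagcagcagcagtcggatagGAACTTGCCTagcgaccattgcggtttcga
Ccng1, chr11:40755442-40755491, minus strand: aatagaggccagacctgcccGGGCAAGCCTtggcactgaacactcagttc
Bax, chr7:45467059-45467119, minus strand: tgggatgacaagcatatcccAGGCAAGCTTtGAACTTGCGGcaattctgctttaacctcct

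These windows of Cdkn1a and Bax also held a pair of decamers, which is the form p53 binds as a tetramer. The pair was allowed a spacer of up to 13 bases and up to 3 mismatches over its 20 letters. It stood in 2 of the members' 10 windows, against 6.7% of all windows. In Cdkn1a the decamers began at positions -73 and -51 from the start, with 0 mismatches and a spacer of 12 bases. A second pair in that window began at -51, with a spacer of 0 and 1 mismatch, and its mismatched decamer is the lower-case run that directly follows the capitals. The other Cdkn1a window, chr17:29093519-29093818, held no exact decamer and no pair. In Bax the paired decamers began at -201 and -190, with 2 mismatches and a spacer of 1 base. Phlda3, Sesn2, Pidd1 and Psrc1 held no match, which says only that these letters are not in this window. A match is a description of the sequence, not a bound site.

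The labels were checked against the target gene and the cell type. Cic lay between 9.18 and 9.69 on the log2 scale in the Cic+/+ arrays and between 7.04 and 7.67 in the Cic-/- arrays. The neural stem cell genes Sox2, at 11.14 to 11.98, and Vim, at 13.08 to 13.50, were well above the limit of 4.40 under which genes were left out as dim. Prom1 of the same list lay nearer to that limit, at 4.25 to 5.57. Of 6 listed leukocyte genes and 6 endothelial genes, 2 each had a mean below that limit, and the highest group mean among the other genes was 6.31 for Cx3cr1 and 5.46 for Kdr. Clone 4 stood apart by Xist, at 4.73 and 3.83 against 11.96 or more in the other clones. Array medians lay between 6.49 and 6.54.

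All 9 measured members were higher on average with EGF than without it in both genotypes. The median EGF difference over the members was 0.61 on the log2 scale in Cic+/+ and 0.80 in Cic-/-. The largest differences were those of Psrc1 and Cdkn1a, and the smallest was that of Ccng1. Values below are log2 levels, and each level is the median over the probesets that name the gene alone. These are bulk arrays, so a change in the share of cells of a type and a change in RNA per cell cannot be told apart.

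Cdkn1a encodes p21, the inhibitor of cyclin-dependent kinases through which p53 halts cells before DNA replication. In clones 1 to 4 it measured 12.67, 12.17, 12.34 and 12.36 with EGF against 11.65, 10.93, 11.68 and 10.92 without. The Cic-/- clones, 5 to 7, measured 12.62, 12.39 and 12.26 against 11.37, 11.28 and 11.26. Every array with EGF lay above every array without it, in both genotypes. The difference with EGF was 1.09 ± 0.19 in Cic+/+ (4 clones), a 2.13-fold higher level. In Cic-/- (3 clones) it was 1.12 ± 0.22, or 2.17-fold. Here and below, the ± after a difference is the SE of the limma fit to all arrays without a block. That SE does not use the pairing of media within a clone. With the clone as a block, which pairs the media, the SE for Cdkn1a was 0.15 in Cic+/+ and 0.17 in Cic-/-.

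Psrc1 encodes a protein of the mitotic spindle that binds microtubules, and it is a direct p53 target. The Cic+/+ clones had 10.39, 9.77, 10.36 and 10.19 in EGF medium and 8.51, 8.61, 9.25 and 9.22 in medium lacking it. For the Cic-/- clones the values were 10.10, 9.75 and 9.66 in EGF medium and 8.28, 8.46 and 8.25 in medium lacking it. The media did not overlap in either genotype, and without EGF the Cic-/- arrays were all below the Cic+/+ arrays. The EGF difference was 1.28 ± 0.20 (2.43-fold) in Cic+/+ and 1.51 ± 0.23 (2.84-fold) in Cic-/-.

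Mdm2, the ubiquitin ligase that limits p53, was at 9.65, 8.87, 8.88 and 8.57 in clones 1 to 4 with EGF and at 8.78, 8.61, 8.43 and 8.40 without it. In clones 5 to 7 it was at 8.96, 9.04 and 9.37 with EGF and at 8.25, 8.42 and 8.53 without. The Cic+/+ media overlapped, with clone 1 high in both, and the Cic-/- media did not. The difference with EGF was 0.44 ± 0.20 (1.35-fold) in Cic+/+ and 0.72 ± 0.23 (1.65-fold) in Cic-/-.

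Ccng1 encodes cyclin G1, which brings a phosphatase to Mdm2 and so belongs to the same feedback loop. Its Cic+/+ levels were 12.95, 12.75, 12.80 and 12.78 with EGF and 12.34, 12.54, 12.82 and 12.72 without, and clone 3 was slightly lower with EGF. Its Cic-/- levels were 12.89, 12.76 and 12.92 with EGF and 12.43, 12.53 and 12.54 without, and these did not overlap. The EGF difference was 0.21 ± 0.12 (1.16-fold) in Cic+/+ and 0.36 ± 0.14 (1.28-fold) in Cic-/-.

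Phlda3 encodes a small protein with a PH domain that competes with Akt at the membrane and so damps survival signalling. Clones 1 to 4 had levels of 11.41, 10.59, 11.11 and 10.99 with EGF and 10.54, 9.91, 10.41 and 10.34 without. Clones 5 to 7 had levels of 10.88, 10.82 and 10.71 with EGF and 9.90, 9.89 and 10.08 without. Clone 2 was the lowest Cic+/+ clone in both media, and its level with EGF was still above every Cic+/+ array without EGF. Its EGF difference was 0.72 ± 0.18 (1.65-fold) in Cic+/+ and 0.85 ± 0.20 (1.80-fold) in Cic-/-.

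Sesn2 encodes a sestrin, which restrains mTORC1 and is induced by p53 and, separately, by the integrated stress response. With EGF it stood at 9.69, 8.77, 8.97 and 8.66 in clones 1 to 4, against 8.81, 8.32, 8.84 and 8.56 without. The Cic-/- values were 9.10, 8.83 and 9.30 with EGF against 8.22, 8.33 and 8.57 without. Clone 1 was the highest Cic+/+ clone with EGF by a wide margin, and the Cic+/+ media overlapped. The difference with EGF came to 0.39 ± 0.21 (1.31-fold) in Cic+/+ and 0.70 ± 0.24 (1.63-fold) in Cic-/-.

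Trp53inp1 encodes a nuclear protein that acts together with p53 and has a part in autophagy. Its level was 10.84, 10.05, 10.29 and 10.01 in clones 1 to 4 with EGF and 9.70, 9.60, 9.87 and 9.58 without. In clones 5 to 7 it was 10.58, 10 and 10.50 with EGF and 9.28, 9.30 and 9.46 without. All arrays with EGF were above those without in both genotypes, and without EGF the Cic-/- arrays lay below the Cic+/+ arrays. The EGF difference was 0.61 ± 0.18 (1.52-fold) in Cic+/+ and 1.01 ± 0.21 (2.02-fold) in Cic-/-.

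Zmat3 encodes an RNA-binding zinc finger protein that regulates splicing and mRNA stability downstream of p53. The Cic+/+ levels were 9.63, 9.44, 9.45 and 9.28 with EGF and 9.15, 8.96, 9.07 and 9.24 without, close together in clone 4. The Cic-/- levels were 9.64, 9.39 and 9.43 with EGF and 8.86, 8.73 and 8.77 without. The media were separate in both genotypes, and without EGF the genotypes were separate too. Its difference with EGF was 0.35 ± 0.12 (1.27-fold) in Cic+/+ and 0.70 ± 0.14 (1.63-fold) in Cic-/-.

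Pidd1 encodes the scaffold of the PIDDosome, the complex that activates caspase-2. It was at 7.81, 7.74, 7.70 and 7.67 in clones 1 to 4 with EGF and at 7.37, 7.09, 7.03 and 6.99 without. Among the Cic-/- clones it was at 7.71, 7.62 and 7.65 with EGF and at 6.89, 6.71 and 6.98 without. The 4 groups were narrow, the media did not overlap, and clone 1 was the highest clone in each Cic+/+ group. The difference with EGF was 0.61 ± 0.12 (1.53-fold) in Cic+/+ and 0.80 ± 0.14 (1.74-fold) in Cic-/-.

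**Figure D1:**
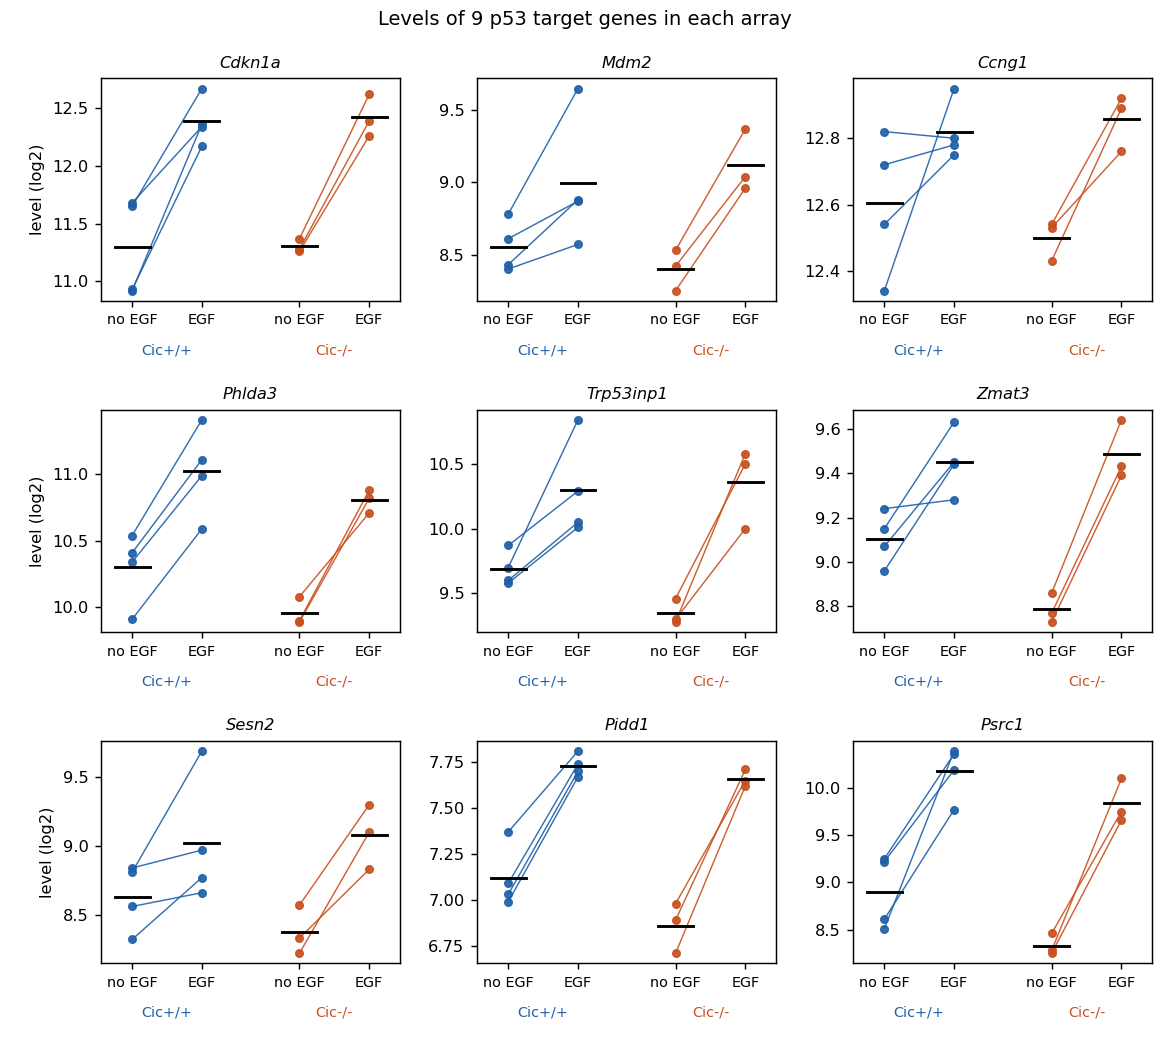
Log2 level of each of 9 p53 target genes in every array, with Cic+/+ clones in blue and Cic-/- clones in orange; a line joins the arrays of a clone and a black bar is the group mean. In Cic-/- every line goes up from no EGF to EGF, and in Cic+/+ every line but that of clone 3 for Ccng1 does.

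Because both media came from the same animal's culture, the EGF difference could be taken within each clone. The 9 members had a median of 0.87, 0.49, 0.45 and 0.42 in the Cic+/+ clones and of 0.88, 0.70 and 0.73 in the Cic-/- clones, whereas the median over all genes tested lay between -0.02 and 0.02. The share of all genes whose EGF difference exceeded the members' median was 1.77% in clone 1, 9.91% in clone 2, 10.5% in clone 3 and 16.1% in clone 4. It was 3.45%, 6.74% and 3.29% in clones 5, 6 and 7. Clone 1 gave the largest Cic+/+ value for 7 members (for Zmat3 with clone 2 at the same rounded value), which Psrc1, at 1.88 against 0.97 to 1.16 in clones 2 to 4, and Mdm2, at 0.88 against 0.17 to 0.45, illustrate. Without clone 1 the median over the members in Cic+/+ was 0.43, and without clone 4, the clone with low Xist, it was 0.59. Cdkn1a had another order, with its largest difference in clone 4 (1.44) and its smallest in clone 3 (0.66).

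**Figure D2:**
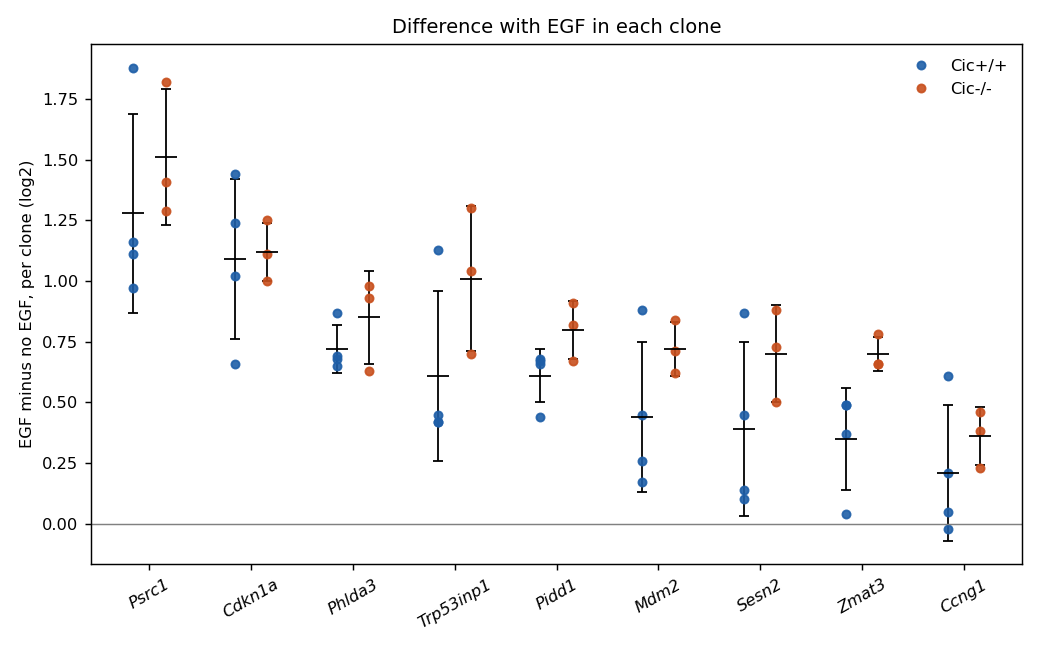
EGF minus no EGF (log2) in each clone for each gene, with Cic+/+ in blue and Cic-/- in orange; the black bar is the mean over clones and the whiskers are the SD (n = 4 and n = 3). Of the 63 points, 62 lie above 0, and the exception is Ccng1 in clone 3 at -0.02.

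Counts against all genes place the members, and nothing is read from them for EGF, since EGF chose the list. In Cic+/+ 8 of 9 members were higher in every clone, against 13.8% of genes tested, and 6 of 9 had no overlap between media, against 3.44%. In Cic-/- both counts were 9 of 9, against 18.2% and 6.63%. At an adjusted p under 0.05 with limma, 0.898% of genes passed in either direction in Cic+/+ and 0.19% in Cic-/-, and 0.305% and 0.0979% passed as higher. Members above that line were Cdkn1a, Pidd1 and Psrc1 in Cic+/+ and Pidd1 and Psrc1 in Cic-/-. With the clone as a block, which pairs the media, 5 members and 1.97% of genes in Cic+/+, and 6 members and 1.0% in Cic-/-, were above it.

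The difference was present at nearly all probesets of the members. The 9 genes are covered by 101 probesets that name 1 gene, from 5 for Phlda3 to 22 for Pidd1. Of these, 99 were higher with EGF in Cic+/+, 98 in Cic-/- and 96 in both. Every probeset of Cdkn1a, Phlda3, Trp53inp1, Zmat3, Sesn2 and Psrc1 was higher with EGF in both genotypes. One probeset of Ccng1 went apart from the other 8, at 1.24 in Cic+/+ and -0.60 in Cic-/-, and it was the dimmest of that gene with a mean level of 5.82.

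**Figure D3:**
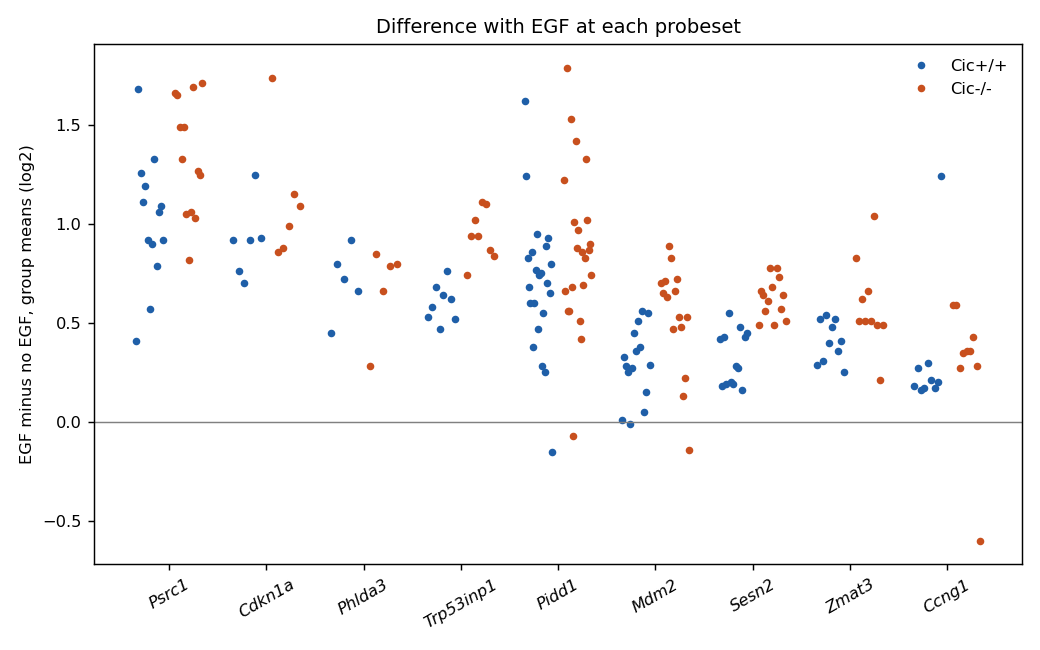
EGF minus no EGF (log2, difference of group means) at each of the 101 probesets of the 9 genes, with Cic+/+ in blue and Cic-/- in orange. Of all probesets, 96 lie above 0 in both genotypes, and the lowest point is the dim Ccng1 probeset at -0.60.

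The comparison of genotypes within a medium was not itself what the list was selected on, although earlier results of these data were known. Its arrays did enter the EGF differences that selected the members, so the comparison is not independent of that selection. With EGF 6 of 9 members were higher and 3 lower in Cic-/- than in Cic+/+, with a median difference of 0.04 on the log2 scale. Without EGF 8 of 9 were lower in Cic-/-, with a median of -0.26, and the exception was Cdkn1a. The medians over all genes lay within 0.02 of 0 in both media. No member passed in either medium by limma (0 of 9 each, against 0.317% of genes with EGF and 0.553% without), and at an unadjusted p under 0.05 there were 0 with EGF and 2 without, against 10.6% and 10.8% of all genes tested.

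The 2 were Psrc1 and Zmat3. Psrc1 averaged 8.33 ± 0.12 (SD, n = 3) in Cic-/- and 8.90 ± 0.39 (SD, n = 4) in Cic+/+ without EGF, a difference of -0.57 ± 0.21 (95% interval -1.02 to -0.11; limma adjusted p = 0.335). Zmat3 averaged 8.79 ± 0.06 and 9.10 ± 0.12, a difference of -0.32 ± 0.13 (interval -0.59 to -0.04; limma adjusted p = 0.383). Trp53inp1, Zmat3, Pidd1 and Psrc1 had every Cic-/- array below every Cic+/+ array without EGF, which held for 5.18% of genes tested. With EGF this held for 0 of 9 members and 5.91% of genes.

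For the death-complex scaffold Pidd1 the difference without EGF was -0.26 ± 0.13 (interval -0.53 to 0.02; limma adjusted p = 0.504), and for Trp53inp1 it was -0.34 ± 0.20 (-0.77 to 0.09; adjusted p = 0.580). Phlda3, the Akt antagonist, differed by -0.34 ± 0.19 (-0.75 to 0.06; limma adjusted p = 0.555), Sesn2 by -0.26 ± 0.23 (-0.75 to 0.23; adjusted p = 0.752) and Mdm2 by -0.15 ± 0.22 (-0.62 to 0.31; adjusted p = 0.869). Cdkn1a was the member closest to 0 in this medium, at 0.01 ± 0.20 with an interval from -0.43 to 0.45, which spans a level from 0.74 to 1.36 times that in Cic+/+. Ccng1 differed by -0.11 ± 0.13 (-0.39 to 0.18; limma adjusted p = 0.850).

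With EGF the differences ran from -0.34 ± 0.21 for Psrc1 (interval -0.79 to 0.12; limma adjusted p = 0.610) to 0.13 ± 0.22 for Mdm2 (-0.33 to 0.60; adjusted p = 0.883). Cdkn1a, at 0.04 ± 0.20, had an interval from -0.40 to 0.48. The intervals of all 9 members included 0 in this medium. They do not show that the genotypes were alike, since each reaches to 0.31 or further in one direction.

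**Figure D4:**
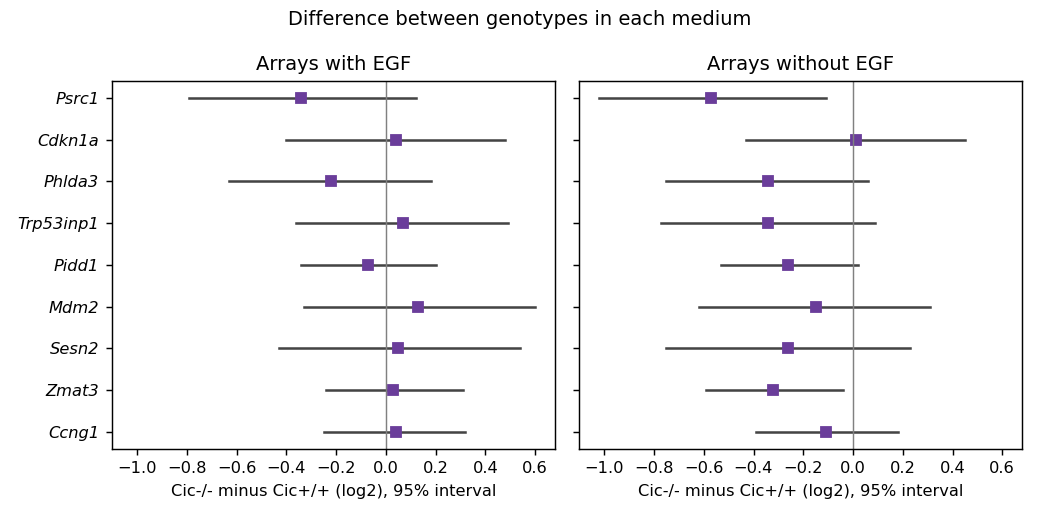
Cic-/- minus Cic+/+ (log2) for each gene with EGF on the left and without EGF on the right; squares are the fitted differences and lines the 95% intervals from limma. With EGF the squares lie on both sides of 0, and without EGF 8 of 9 lie below it, with only the intervals of Psrc1 and Zmat3 clear of 0.

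The interaction is the EGF difference in Cic-/- minus that in Cic+/+. For the members it is a description, because it is built from the EGF differences on which they were selected. It was above 0 for all 9 members, from 0.03 ± 0.29 for Cdkn1a to 0.41 ± 0.28 for Trp53inp1, with a median of 0.23, or 0.40 without clone 1, against 0.01 over all genes. None of the 9 passed with limma, against 0.00576% of genes tested. None had an unadjusted p under 0.05, against 2.86% of genes tested. With the clone as a block 1 member did, against 611 genes higher and 440 lower of all 17364 tested. Zmat3 came nearest, at 0.35 ± 0.18 (interval -0.04 to 0.74). That interval does not use the pairing of media within a clone. With the clone as a block the SE for Zmat3 was 0.15 (limma blocked adjusted p = 0.781). By construction the interaction of a gene is its genotype difference with EGF minus that without EGF, so it adds no measurement to them.

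Beyond the members, 55 further p53 targets were listed from general knowledge, and 52 of them were tested. With limma 0 of 52 passed for EGF in Cic+/+ and 0 in Cic-/-, while 16 were higher and 3 lower at an unadjusted p under 0.05 in Cic+/+, and 18 and 1 in Cic-/-. Of all genes tested 5.23% were higher and 7.23% lower at that line in Cic+/+, and 4.77% and 5.03% in Cic-/-. With the clone as a block 11 rose in Cic+/+, 6 rose in Cic-/-, and none fell. The median EGF difference of the 52 was 0.19 in Cic+/+ and 0.35 in Cic-/-. Genes that rose with the block in both genotypes were Plk2, a polo-like kinase (0.94 ± 0.22 in Cic+/+ and 1.28 ± 0.25 in Cic-/-, blocked adjusted p = 0.00787 and 0.00626 in limma), Tnfrsf10b, a death receptor (0.88 ± 0.23 and 1.28 ± 0.27), Polk, a translesion DNA polymerase (0.70 ± 0.18 and 0.85 ± 0.21), Eda2r (0.65 ± 0.20 and 0.80 ± 0.23) and Zfp365 (0.64 ± 0.20 and 1.01 ± 0.23).

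Other targets had values in 1 genotype or neither past the blocked test. Ptprv, a receptor tyrosine phosphatase, rose in Cic+/+ with the block (1.29 ± 0.45; limma blocked adjusted p = 0.0319) and was at 1.24 ± 0.51 in Cic-/-. Epha2, Gtse1, Dglucy, Apaf1 and Slc19a2 also rose in Cic+/+ with the block, by 1.08, 0.90, 0.89, 0.61 and 0.41. Gdf15, a secreted stress cytokine, rose in Cic-/- with the block (0.95 ± 0.27; limma blocked adjusted p = 0.0389) and was at 0.36 ± 0.23 in Cic+/+. The death receptor gene Fas was at 0.22 ± 0.29 in Cic+/+ and 1.01 ± 0.33 in Cic-/-, and passed in neither. The BH3-only genes Bbc3, at 0.16 ± 0.36 and 0.91 ± 0.41, and Pmaip1, at 0.18 ± 0.19 and 0.63 ± 0.22, did not pass either. Between genotypes 0 of 52 passed in each medium with limma, with 3 at an unadjusted p under 0.05 with EGF and 4 without. Of all genes tested 10.6% and 10.8% were under that line. The median genotype differences of the 52 were 0.07 with EGF and -0.03 without. The largest of these differences was that of Thbs1, at 1.20 ± 0.39 with EGF (adjusted p = 0.267).

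Relatives and partners of the members, and upstream genes of the p53 circuit, were set beside them. Sesn1, which is also on the list of further p53 targets, differed with EGF by 0.06 ± 0.19 in Cic+/+. In Cic-/- it differed by 0.05 ± 0.22, against 0.39 and 0.70 for Sesn2 in the same order. Mdm4, the partner of Mdm2, was at -0.08 and -0.07, Ccng2 at 0.12 and 0.25, and Trp53inp2 at -0.24 and -0.16. Phlda1, a relative of Phlda3, was at 0.55 ± 0.28 and 0.32 ± 0.33, and Zmat1, a relative of Zmat3, at -0.48 ± 0.16 and -0.41 ± 0.18. Cradd, a death-domain partner of Pidd1, was at -0.35 ± 0.20 and 0.53 ± 0.23. The other 4, Zmat2, Zmat5, Sesn3 and Casp2, lay between -0.15 and 0.23. Of 11 relatives tested that are not members, 0 passed in limma for EGF in either genotype. At an unadjusted p under 0.05 there was 1 in Cic+/+ and 2 in Cic-/-, against 12.5% and 9.8% of all genes tested. Of 25 circuit genes tested 0 passed for EGF in either genotype, and the medians were -0.01 and 0.00. In each genotype 5 of the 25 had an unadjusted p under 0.05, against the same 12.5% and 9.8% of all genes. With the block 2 circuit genes fell in Cic+/+, Hipk2, a kinase of p53 (-0.52 ± 0.15, limma blocked adjusted p = 0.025), and Ppp1r13b, which steers p53 to death genes (-0.51 ± 0.16, blocked adjusted p = 0.0443). In Cic-/- Hipk2 was at -0.32 ± 0.17 and Ppp1r13b at -0.52 ± 0.19, and neither passed (limma blocked adjusted p = 0.258 and 0.0959). The p53 gene itself, Trp53, was not analysed here.

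Among the other inhibitors of cyclin-dependent kinases, Cdkn1b, a relative of Cdkn1a, was at -0.05 ± 0.19 with EGF in Cic+/+ and -0.04 ± 0.22 in Cic-/-. Cdkn1c, the third of that family, went the other way from Cdkn1a and fell in Cic+/+ (-1.72 ± 0.32; limma adjusted p = 0.0202, and 0.168 without clone 2, 0.184 without clone 4, 0.149 by the brightest probeset), while it was at -0.27 ± 0.37 in Cic-/-. Without EGF Cdkn1c was lower in Cic-/- (-1.66 ± 0.34; adjusted p = 0.048), a call that ended when any one clone was left out, with adjusted p from 0.0583 to 0.155. That call also ended with no filter (0.0589), with centring (0.0513), with quantile normalization (0.0553), with only the arrays compared (0.122) and by the brightest probeset (-0.72; 0.237). Cdkn2b, of the other inhibitor family, was at 0.87 ± 0.32 and 0.87 ± 0.37 with EGF and did not pass. Cdkn2a, Cdkn2c and Cdkn2d lay between -0.13 and 0.28 in both genotypes. Of 13 Bcl2 family genes tested, the family of Bax, 0 passed for EGF in either genotype. At an unadjusted p under 0.05 there were 1 and 4, against 12.5% and 9.8% of all genes tested. Bbc3, Pmaip1 and Bcl2l11 of this family are also on the list of further p53 targets.

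The members were then set beside cell cycle and signalling lists in the same clones. Over 23 mitosis genes the Cic+/+ clones had median EGF differences of 0.07, 0.78, 0.14 and 0.66, and the Cic-/- clones of 0.15, -0.05 and -0.28. The 9 members had their largest medians in clones 1 and 5, where that of the mitosis genes was 0.07 and 0.15. Over 23 DNA replication genes the medians were 0.29, 0.62, 0.38 and 0.63 in Cic+/+ and -0.29, 0.79 and -0.08 in Cic-/-. Over 19 genes of the EGF and ERK response it stayed between 0.11 and 0.36 in all 7 clones. None of these 3 lists had a gene that passed for EGF in limma without the block. At an unadjusted p under 0.05 there were 0 mitosis, 3 replication and 4 ERK genes in Cic+/+ and 0, 0 and 4 in Cic-/-. Of all genes tested 12.5% and 9.8% were under that line. With the block the ERK genes Ccnd1 (1.10 ± 0.38, limma blocked adjusted p = 0.0461) and Spry4 (0.77 ± 0.23, 0.0325) were among 4 that rose in Cic+/+. In Cic-/- 2 rose with the block, Spry4 (0.96 ± 0.27, limma blocked adjusted p = 0.0408) and Spred3 (0.43 ± 0.12, 0.0446). Ccnd1 was at 1.11 ± 0.44 in Cic-/- and did not pass (blocked adjusted p = 0.107).

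**Figure D5:**
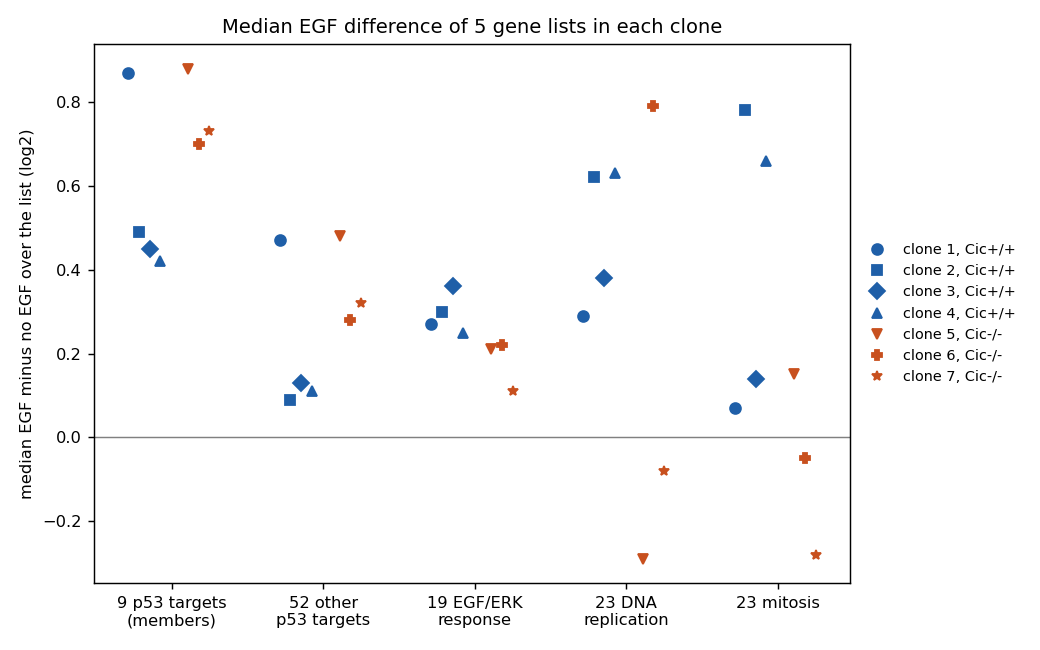
Median EGF minus no EGF (log2) of 5 gene lists in each clone, with a marker shape per clone, Cic+/+ in blue and Cic-/- in orange. The members lie between 0.42 and 0.88 in all 7 clones, while the mitosis list runs from -0.28 to 0.78.

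Between genotypes all 23 mitosis genes were lower in Cic-/- in both media, with medians of -0.92 with EGF and -0.47 without. One fell past the test, Nusap1, a spindle protein, with EGF (-1.80 ± 0.29; limma adjusted p = 0.0145, and 0.0851, 0.0658 and 0.0704 without clones 2, 3 and 4, and 0.530 by the brightest probeset). Psrc1, which acts in the spindle, had the most negative genotype difference of the members in both media. The part of the mitosis genes in it was not tested. In the integrated stress list, which shares Sesn2, 0 of the other 16 genes passed for EGF in either genotype in limma, and the medians were -0.02 and 0.03. At an unadjusted p under 0.05 there were 1 and 0, against 12.5% and 9.8% of all genes tested. With the block Chac1 of that list fell in Cic+/+ (-0.89 ± 0.23; blocked adjusted p = 0.015).

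Levels of cell type marker lists differed between the media too. The median level over 7 of 8 listed myelinating oligodendrocyte genes was 5.78 to 6.59 with EGF and 8.25 to 8.67 without in the Cic+/+ arrays, and 5.09 to 5.94 and 5.45 to 6.13 in the Cic-/- arrays. Of that list, Mag and Enpp6 averaged 4.46 and 4.99 with EGF and 6.89 and 8.51 without in Cic+/+. Over 6 astrocyte genes the median was 7.13 to 8.43 with EGF and 9.01 to 9.66 without in Cic+/+, and 7.31 to 8.07 and 8.48 to 9.28 in Cic-/-. The oligodendrocyte progenitor list of 7 genes was at 9.36 to 10.17 with EGF and 9.96 to 10.30 without in Cic+/+, and at 8.40 to 8.80 and 9.05 to 10.17 in Cic-/-. Its gene Gpr17 fell with EGF in both genotypes (-2.71 ± 0.29 and -2.46 ± 0.34, limma adjusted p = 0.000536 and 0.013, the latter 0.0825 with only the arrays compared, 0.108 without clone 5 and 0.252 without clone 6). The whole list did not follow Gpr17 in Cic+/+, where 3 of the 7 genes were higher with EGF and the median difference was -0.04. Pdgfra, which was among the 3, was at 0.26 ± 0.35 in Cic+/+ and -1.80 ± 0.41 in Cic-/-. In Cic-/- 0 of the 7 were higher, with a median of -0.40. The neuroblast and neuron list of 7 genes was at 7.14 to 7.61 with EGF and 6.83 to 8 without in Cic+/+, and at 6.70 to 7.13 and 7.38 to 8.37 in Cic-/-. The median of the neural stem cell list, with 10 of 11 genes, stayed between 10.25 and 10.88 in all 14 arrays, but single genes of it did not stay level. Nes differed with EGF by 1.32 ± 0.40 in Cic+/+ (limma blocked adjusted p = 0.0226) and by 0.84 ± 0.46 in Cic-/-. Hes5 went the other way, by -0.84 ± 0.35 and -1.27 ± 0.40, and did not pass. None of these genes was at 0, a level the log2 scale of an array does not have. The part of such cells in the members' differences was not tested.

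Across the 14 arrays the members followed each other. Pearson's r of each with the mean of the other 8, each gene scaled to unit variance, ran from 0.80 for Ccng1 and 0.83 for Mdm2 to 0.93 for Phlda3 and Zmat3 and 0.97 for Trp53inp1. The genes outside the list with the closest pattern to the members' mean were Angptl2 (r = 0.95), a secreted glycoprotein, Col18a1 (0.91) and Fbn1 (0.90) of the extracellular matrix, Fkbp1a (0.90), the p53 target Polk (0.90), Gadd45g (0.89), a stress-inducible relative of Gadd45a, Adamts4 (0.89), a matrix protease, and Ssc5d (0.89). All 8 were higher with EGF in each of the 7 clones, by averages from 0.50 to 1.84 in Cic+/+ and from 0.50 to 2.52 in Cic-/-. These correlations describe arrays that share clones, media and genotypes, and they carry no test. The members were selected as higher with EGF in these arrays, so correlation among them across the media follows in part from the selection. The 8 genes were picked for following that pattern, so their being higher with EGF is no separate result.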

How the data were processed

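The deposited table holds log2 probeset values that the authors made with RMA, per the submitters' processing notes, and their software version and array annotation build were not given in the sources used here. All 14 arrays were used. A gene's value was the median of the probesets naming it alone, with older synonyms matched through RefSeq. The dimmest 25% of genes (mean level under 4.40) were left out, leaving 17364.

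A mean for each group was fitted to all 14 arrays with limma 3.58.1 in R 4.3.3, without a block, and p-values were adjusted over all genes tested by the Benjamini-Hochberg method. The threshold was an adjusted p under 0.05, and "rose" and "fell" are kept for passing genes, with the fit named where it is the blocked one. The fit was also run on simulated data with independent noise in each array. Those data had no shared clone effect, so that run cannot check the fit for paired arrays.

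Members and gene lists were chosen with earlier results of these data known. Named genes come from the members, from small lists open to naming in full (kinase inhibitors, Bcl2 family, relatives, circuit), of which only some are named, and, from longer lists, from those passing or largest in a comparison. The probeset of Ccng1 that stood apart was chosen after its values were seen.

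Both media of a clone came from the same animal, per the labels, so arrays are paired. The deviations of a clone's 2 arrays from their group means correlated (r from 0.156 in clone 6 to 0.616 in clone 7). Each r was higher than with the other clones of that genotype, in clone 6 by little (0.156 against 0.12). Deviations from the mean of so few arrays tend to opposite signs between clones, which favours this outcome. The number of arrays limits the precision.

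Alternatives were the mean or brightest probeset, no filter or one at 50%, centring, quantile normalization, a trended prior, a random or fixed block on the clone, only the arrays compared, and leaving out each clone.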

Additional observations from a re-analysis of the deposited data

Results flagged for a closer look

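In Cic+/+ the EGF difference of Trp53inp1 in clone 1, 1.13 on the log2 scale, stood apart from the 0.42 to 0.45 of clones 2 to 4. The EGF difference of Pidd1 in the same clone, 0.44, was the lowest of the 4 and stood apart from 0.66 to 0.68. These were the 2 of 27 groups of 4 values (the levels in each medium and the differences of the 9 members) in which an end value lay beyond Dixon's 95% limit, and chance alone gives about 1 in 20.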

How the results depend on the processing

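No member passed between genotypes in either medium, or for the interaction, under any alternative, which the small number of arrays limits. The members' EGF differences stayed above 0 in all 153 values in each genotype (0.08 to 1.38 in Cic+/+, 0.27 to 1.62 in Cic-/-). Their median moved to -0.10 (main -0.26) between genotypes without EGF by the brightest probeset, to 0.68 by the mean and 0.66 by the brightest probeset for EGF in Cic-/- (main 0.80), and between 0.17 and 0.40 for the interaction when a clone was left out.

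Counts of passing genes moved more. With the clone as a replicate block, random and fixed, they were 897 and 969 for EGF in Cic+/+ (main 156), 361 and 519 for EGF in Cic-/- (main 33) and 7 and 3 for the interaction (main 1). The mean over probesets gave 170 between genotypes without EGF (main 96), 256 and 70 for EGF in Cic+/+ and Cic-/- and 2 for the interaction. For EGF in Cic-/- the filter at 50% gave 51, centring 55, quantile normalization 59 and a trended prior 50. Only the arrays compared gave 44 without EGF and 3 for EGF in Cic-/-. The interaction had 0 with the brightest probeset and 0 with the filter at 50%. Leaving out a clone gave 19 to 60 and 53 to 125 between genotypes with and without EGF, 17 to 217 and 0 to 68 for EGF in Cic+/+ and Cic-/-, and 1 to 3 for the interaction. The cause was not tested.

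The sign turned for values near 0 that had not passed. By the mean over probesets these were Cdkn1a (-0.09) and Ccng1 (0.06) between genotypes without EGF, Sesn2 (-0.05) with EGF, and Ccng1 (-0.03) and Phlda3 (-0.03) for the interaction. By the brightest probeset they were Cdkn1a without EGF (-0.02), Phlda3 for the interaction (-0.06) and Cdkn1c for EGF in Cic-/- (0.19). Leaving out a clone gave Cdkn1a -0.06 to 0.13, Mdm2 -0.01 to 0.35, Trp53inp1 -0.04 to 0.25, Zmat3 -0.04 to 0.09 and Sesn2 -0.07 to 0.28 with EGF, Cdkn1a -0.11 to 0.14 without EGF and -0.11 to 0.15 for the interaction, and Cdkn1c -0.74 to 0.04 for EGF in Cic-/-. The cause was not tested. The block changed no call of a member between genotypes.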
